A study of Saccharomyces cerevisiae with 13 samples.

Results

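Loss of the transcription factor Yap1 was set directly against its excess in *S. cerevisiae* BY4741, a haploid laboratory strain. The 3 libraries titled as *yap1* with the ADH plasmid formed the *yap1* deletion group and the 3 libraries titled as YAP1 formed the *YAP1* overexpression group, so that 6 of the 13 libraries of the series entered the test. The *yap1* deletion cells carried the empty plasmid pRS426ADH. The *YAP1* overexpression cells were WT cells with pRS426ADH-YAP1, in which the *ADH1* promoter drives *YAP1* from a high-copy plasmid. The 3 libraries of WT with empty pRS426ADH were left out of every test and are given only as levels, and the 4 libraries without plasmid were not used. The labels of the plasmid libraries name no caffeine treatment, which in this study was given to WT without plasmid. According to the study's strain list the deletion is a KANMX replacement, the listed YAP1 plasmid carries a TAP tag that the labels do not name and BY4741 lacks *URA3*, so the plasmid is the source of that marker. The series asked which genes follow Yap1, and the contrast of deletion with overexpression spans both ends of the Yap1 range.

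Yap1 is a bZIP transcription factor that cycles between cytoplasm and nucleus. Peroxide and thiol-reactive compounds oxidize its cysteines, which hides its nuclear export signal, and the protein then accumulates in the nucleus and binds Yap1-responsive elements (YREs) in promoters. Its known target genes encode thioredoxins, glutathione enzymes, reductases of reactive carbonyls and drug transporters such as Flr1.

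QuantSeq, a method that reads the 3′ end of each mRNA, gave read counts on 7126 named rows. Total counts per library were 20589318 to 21057138 in the *yap1* deletion and 19375047 to 24452594 in *YAP1* overexpression. The 15 rows of rRNA genes took 51.2% to 58.2% of the counts in the deletion libraries and 43.8% to 63.95% in the overexpression libraries, and at least 8659437 counts per library remained for the other rows. The WT libraries varied more than the others. The standard deviation of the log2 values of a library around its group mean was 0.266 to 0.308 in the deletion, 0.235 to 0.268 in overexpression and 0.423 to 0.675 in WT. Nothing in the labels says that the 3 libraries of a group came from separate cultures, so the p-values measure the spread between libraries, which may be technical. Levels below are read counts as CPM, relative to library size after TMM scaling. Changes are log2 fold changes of deletion over overexpression from the quasi-likelihood test of edgeR, with p-values adjusted by Benjamini-Hochberg over the 6714 rows tested and a threshold of 0.05.

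*YAP1* itself followed the labels. It had 8, 2 and 22 counts in the *yap1* deletion libraries, against 24144, 23285 and 25251 counts in the *YAP1* overexpression libraries, and 638, 635 and 722 counts in WT. All deletion libraries lay far below WT and all overexpression libraries far above it. The log2 fold change was -11.06 (SE 0.473, edgeR adjusted p = 9.04e-06). The neighbouring genes *ERG6* and *GIS4* did not pass the test, with log2 fold changes of -0.10 and 0.34. The plasmid marker *URA3*, which encodes an enzyme of uracil synthesis, had 6812, 5090 and 6113 CPM in the deletion, against 2388, 2304 and 2473 CPM in overexpression. It was higher in the deletion by 1.33 on the log2 scale (SE 0.141, edgeR adjusted p = 4.16e-06), with no overlap of the groups. On the scale of all 9 plasmid libraries *URA3* had 4669 to 6195 CPM in the deletion, 2020 to 2254 CPM in overexpression and 5308 to 6326 CPM in WT, so the overexpression libraries stood apart from both strains with the empty plasmid. The part of this difference in the other results was not tested.

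Across all rows tested, 202 (3.01%) were lower and 126 (1.88%) were higher in the *yap1* deletion than in *YAP1* overexpression, 328 (4.89%) in all. All 3 deletion libraries lay below all 3 overexpression libraries in 10.8% of the rows, called or not. Among the lower rows 59 differed by more than 2-fold, 26 by more than 4-fold and 12 by more than 8-fold. Among the higher rows 16 differed by more than 2-fold and 0 by more than 4-fold, the largest being *COX17* at 1.64 on the log2 scale. With scaling by library size only, the counts were 82 lower and 25 higher, so that 23.4% of the calls were higher in place of 38.4%. A fit that included the 3 WT libraries gave 45 lower and 21 higher. Single libraries also moved the counts. The number higher was 71, 70 or 81 without overexpression replicate 1, 2 or 3, and the number lower was 111 without overexpression replicate 2.

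**Figure D1:**
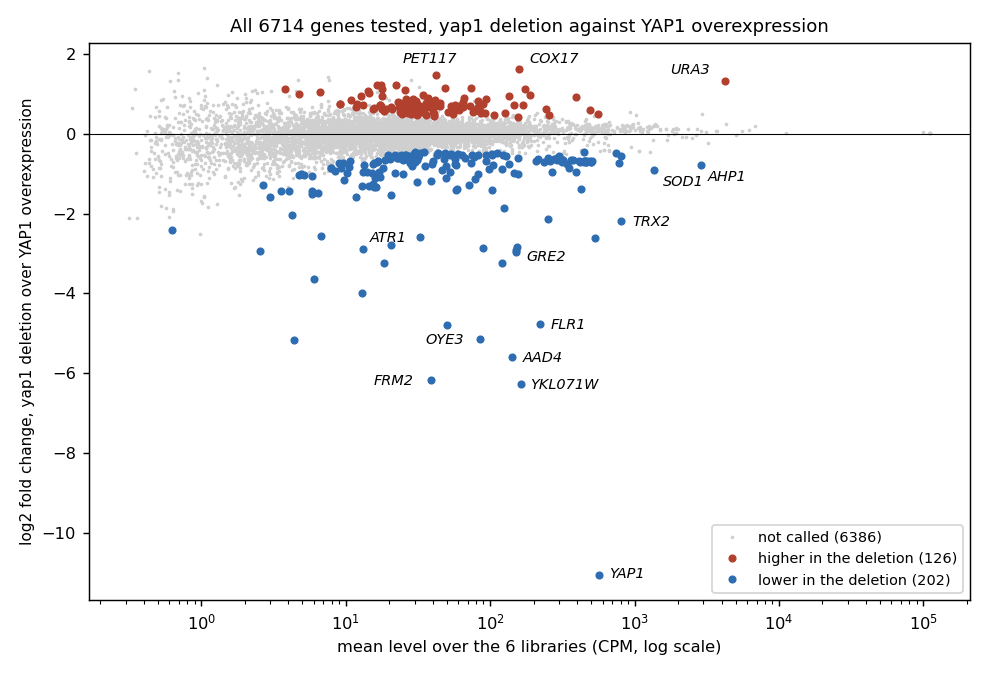
Log2 fold change of the yap1 deletion over YAP1 overexpression (y axis) against the mean level over the 6 libraries in CPM on a log scale (x axis) for all 6714 rows tested. Red points were higher in the deletion (126), blue points lower (202) and grey points not called; the lower genes reach -11.06 and the higher genes only 1.64.

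Known targets of Yap1 were lower together. Of 36 genes on a list of Yap1 targets, 30 (83.3%) were lower in the *yap1* deletion and 0 were higher, against 3.01% of all rows tested. The list, like the others below, was drawn up with earlier results of these data known, so its share is a description. It shares members with several lists below, such as all 7 aryl-alcohol dehydrogenases and some oxidoreductase, thioredoxin and glutathione genes. Those genes are counted again there. All 36 had a negative log2 fold change, with a median of -1.84 beside 0.00 for all rows tested. The summed level of the list was 4970, 5400 and 5424 CPM in the deletion, against 12640, 12930 and 13100 CPM in overexpression. In 33 of the 36 genes all 3 deletion libraries lay below all 3 overexpression libraries, against 10.8% of all rows tested. The 6 members not called were *SNQ2*, *PDR5*, *SOD2*, *ZWF1*, *CCP1* and *AAD10*. Leaving out any one library gave 28 to 30 called targets, and a fit of all 9 plasmid libraries, WT included, gave 19.

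To show what the promoters of the most affected genes hold, YREs are printed here from the RefSeq R64 sequence. TTACTAA and TGACTAA were searched on both strands of the 500 bases before the start codon. Each site is printed 5′ to 3′ on the strand on which the element reads, with the element in capitals and 10 flanking bases on either side. The first site of *FLR1*, the second of *TRX2* and those of *YCF1* and *YKL071W* read on the strand opposite to the gene.
FLR1, chrII:254351-254357: cccttttaccTGACTAAttatcccgcc
FLR1, chrII:254370-254376: atcaatcatcTGACTAAtgggcgggat
FLR1, chrII:254568-254574: atgatggtgaTTACTAAgtataggaat
ATR1, chrXIII:37787-37793: aatatagtgaTTACTAAtggaatggcg
YCF1, chrIV:727708-727714: aatttcgtaaTTACTAAgccgtaacct
TRX2, chrVII:913402-913408: ggctcttttcTTACTAAgcgcgttcag
TRX2, chrVII:913438-913444: ggagcatcctTTACTAAgagtataaac
YKL071W, chrXI:304892-304898: gctaatctcaTTACTAAtctcattaca
YKL071W, chrXI:304952-304958: ccgctatgcaTTACTAAtcacattact
SNQ2, chrIV:465478-465484: ggtattggtaTTACTAAtagtgactac
PDR5, chrXV:619392-619398: attttcagatTTACTAAgactccggtg
The *FLR1* promoter held 3 elements, of which the nearest lay 142 bases before the start codon, and the gene itself lies on the minus strand at chrII:252563-254209. The promoter of *YKL071W*, the gene with the largest difference after *YAP1*, held 5 copies of TTACTAA between bases 156 and 222 before the start codon. *SNQ2* and *PDR5* each held 1 copy of the same element, although neither passed the test. A match is a description of the sequence, not evidence of binding.

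Over all genes with a searchable promoter, 57 of 126 (45.2%) of those lower in the deletion held at least 1 YRE. The share was 17 of 119 (14.3%) for genes higher in the deletion and 995 of 5746 (17.3%) for all genes tested. With the listed targets set aside, 36 of the 98 other lower genes (36.7%) held one. Over all genes, the listed targets included, the share called lower grew with the number of elements. It was 1.45% of the 4751 genes without a YRE, 4.25% of the 895 genes with 1 element, 16.5% of the 91 genes with 2 elements and 4 of the 9 genes with 3 or more. Of these 9 genes, 1 was called higher, *MRPL51*. Among those called lower, *HBN1* and *FLR1* each held 3 elements, whereas *FRM2*, *GRE2* and *YML131W* held none in this window.

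Most transporters did not pass the test. *FLR1* encodes a plasma membrane antiporter of the major facilitator superfamily (MFS) that exports fluconazole and other drugs. It had 15.2, 15.6 and 16.8 CPM in the *yap1* deletion, against 404, 454 and 429 CPM in *YAP1* overexpression, a log2 fold change of -4.76 (SE 0.143, edgeR adjusted p = 1.83e-14). The groups did not overlap, and on the scale of all 9 plasmid libraries the WT libraries at 22.5, 16.3 and 16.2 CPM lay beside the deletion (13.8 to 15.2 CPM). *ATR1*, an MFS pump for aminotriazole and borate, had 10.2, 9.25 and 8.75 CPM in the deletion and 55.1, 59.6 and 54.6 CPM in overexpression, a log2 fold change of -2.59 (SE 0.138). The other 18 of the 20 MFS drug antiporters tested did not pass. The 2 that passed were 10% of the list, against 3.01% of all rows tested lower.

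Of 22 ABC transporters, only *YCF1* (4.5%) passed the test, against 3.01% of all rows tested lower. It fell by 1.12 on the log2 scale (SE 0.122, edgeR adjusted p = 5.74e-06). Ycf1 moves glutathione conjugates and metals into the vacuole. Its level was 52.9, 46.9 and 48.1 CPM in the deletion, against 104, 102 and 116 CPM in overexpression. *PDR5* and *SNQ2* encode drug pumps of the plasma membrane. *PDR5* had 23.7, 28.8 and 18.4 CPM in the deletion and 29.6, 29.1 and 24.1 CPM in overexpression, and the groups overlapped. Its log2 fold change was -0.22 with a 95% interval from -0.57 to 0.12 (edgeR adjusted p = 0.642). *SNQ2* had 25.5, 39.8 and 35.7 CPM in the deletion, against 48.3, 53.9 and 42.7 CPM in overexpression. The *SNQ2* groups did not overlap, but the log2 fold change of -0.52 missed the threshold (95% interval -0.85 to -0.19, edgeR adjusted p = 0.0688), and it passed without deletion replicate 2 (adjusted p = 0.0459).

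**Figure D2:**
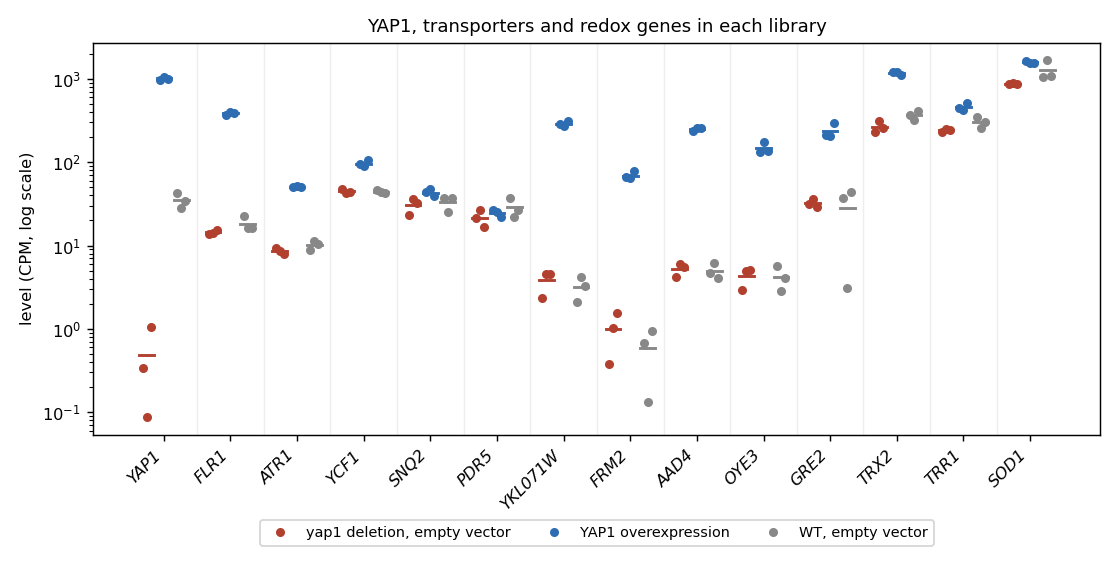
Level in CPM on a log scale (y axis), on the scale of all 9 plasmid libraries, of 14 genes (x axis) in the yap1 deletion (red), YAP1 overexpression (blue) and WT with empty vector (grey, in no test). Points are single libraries and bars are group means; FLR1 lay at 13.8 to 15.2 CPM in the deletion and 366 to 398 CPM in overexpression, whereas the groups of PDR5 overlapped.

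The largest differences after *YAP1* belonged to oxidoreductases. Of 22 genes on a list of NADPH-dependent and related oxidoreductases, 17 were lower in the *yap1* deletion and 0 were higher, against 3.01% of all rows tested lower, with a median log2 fold change of -1.34. A fit that included the 3 WT libraries called 9 of them. *YKL071W*, which resembles short-chain dehydrogenases, had 2.55, 4.99 and 5.08 CPM in the deletion, against 318, 313 and 341 CPM in overexpression. It fell by 6.27 on the log2 scale (SE 0.22, edgeR adjusted p = 2.23e-11). The groups were far apart in every library. On the scale of all 9 plasmid libraries it had 2.32 to 4.59 CPM in the deletion, 274 to 311 CPM in overexpression and 2.09 to 4.13 CPM in WT, so WT lay with the deletion.

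*FRM2*, a nitroreductase, fell by 6.17 on the log2 scale, with 0.418, 1.10 and 1.73 CPM in the deletion and 72.8, 72.9 and 85.2 CPM in overexpression. Its relative *HBN1* fell by 2.83, with 37.2, 36.2 and 40.9 CPM in the deletion and 282, 287 and 241 CPM in overexpression. *OYE3*, an NADPH dehydrogenase of the old yellow enzyme family, fell by 5.14, with 4.71 ± 1.31 CPM in the deletion and 165 ± 30.2 CPM in overexpression (SD, n = 3 each). Its more abundant relative *OYE2* fell by 1.39, so both enzymes were lower. *GRE2*, a methylglyoxal reductase, fell by 2.92 (32.0 to 38.9 CPM in the deletion, 232 to 329 CPM in overexpression). The row *YOL150C* fell by 2.97 with nearly the same levels as *GRE2*. It has no entry in the R64 annotation used, so whether the 2 rows share reads could not be checked. *YML131W*, *YNL134C*, *YLR460C* and *YCR102C*, which resemble quinone or medium-chain reductases, had log2 fold changes of -3.24, -2.61, -3.98 and -5.18, and each passed the test. *YCR102C* rested on few reads, 5, 3 and 6 counts in the deletion against 180, 145 and 227 counts in overexpression.

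The aryl-alcohol dehydrogenases are a family of similar reductase genes, many of them close to chromosome ends. Of 7 genes, 6 were lower in the *yap1* deletion, against 3.01% of all rows tested, with a median log2 fold change of -2.93. *AAD4* had 4.64, 6.47 and 6.18 CPM in the deletion, against 259, 292 and 282 CPM in overexpression (log2 fold change -5.59, SE 0.165, edgeR adjusted p = 1.83e-14). *AAD16* fell by 4.78, *AAD6* by 3.63 and *AAD15* by 2.93. The member not called was *AAD10*, at 9.45 to 13.7 CPM in the deletion and 12.2 to 12.8 CPM in overexpression. The authors counted multiple alignments, so reads of 1 member can count on another, and the values of single members of this family are uncertain. Between 4 and 6 members were called when 1 library was left out, and 3 in the fit that included WT.

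The thioredoxin system carries electrons from NADPH to peroxiredoxins and other oxidized proteins. Of 11 genes 6 were lower and 0 were higher in the *yap1* deletion, against 3.01% of all rows tested lower, with a median of -0.73. *TRX2*, a cytosolic thioredoxin, had 254, 344 and 283 CPM in the deletion, against 1353, 1378 and 1238 CPM in overexpression, and fell by 2.17 (SE 0.142, edgeR adjusted p = 2.67e-09). The thioredoxin reductase *TRR1* fell by 0.95, with 252, 276 and 270.0 CPM in the deletion and 501, 484 and 560 CPM in overexpression. The other cytosolic thioredoxin, *TRX1*, stood at 193 to 280 CPM in the deletion and 222 to 235 CPM in overexpression, and the 95% interval of its log2 fold change ran from -0.30 to 0.29. *SRX1*, the sulfiredoxin that repairs overoxidized peroxiredoxin, fell by 2.78. The peroxiredoxins *PRX1*, *AHP1* and *TSA1* had log2 fold changes of -0.98, -0.77 and -0.73, and each passed the test. *AHP1* was the most abundant gene of the list, with 1978, 2086 and 2309 CPM in the deletion and 3544, 3706 and 3608 CPM in overexpression.

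Of 26 genes of glutathione and glutaredoxins, 6 were lower and 0 were higher in the *yap1* deletion, against 3.01% of all rows tested lower, and the median of the list was -0.05. The lower genes were *GPX2*, a phospholipid hydroperoxide peroxidase (-3.23), the glutathione transferases *GTT2* (-2.89) and *ECM4* (-2.85), *GSH1*, the first enzyme of glutathione synthesis (-1.47), the glutathione reductase *GLR1* (-1.01) and the glutaredoxin *GRX2* (-0.55). *GPX2* had 2.23, 3.88 and 4.56 CPM in the deletion, against 34.5, 30.0 and 35.4 CPM in overexpression. The second enzyme of synthesis, *GSH2*, did not pass the test (-0.14, 95% interval -0.42 to 0.14). *GRX2* lost its call when deletion replicate 2 or 3 or overexpression replicate 2 or 3 was left out (adjusted p 0.0564 to 0.132).

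*SOD1*, the copper-zinc superoxide dismutase, had 942, 964 and 952 CPM in the *yap1* deletion, against 1824, 1780 and 1708 CPM in *YAP1* overexpression, and fell by 0.89 (SE 0.121, edgeR adjusted p = 9.52e-05). *CCS1*, the chaperone that loads copper into Sod1, fell by 0.99. The mitochondrial *SOD2* and the catalases *CTT1* and *CTA1* did not pass the test, with log2 fold changes of -0.42, -0.27 and -0.02. *SOD2* passed without deletion replicate 1 (adjusted p = 0.0248). Of 16 genes of the pentose phosphate pathway and NADPH supply, *GND2* (-1.21) and *SOL4* (-0.49), or 12.5%, were lower, against 3.01% of all rows tested. *ZWF1*, which encodes the first enzyme of the pathway, had a log2 fold change of -0.72 and an edgeR adjusted p of 0.0503. It passed in 8 of 16 other settings, among them without deletion replicate 2 (adjusted p = 0.0221) or overexpression replicate 3 (0.0448). *SOL4* lost its call without deletion replicate 1 or 2 or overexpression replicate 1 or 2 (adjusted p 0.0697 to 0.218).

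Most genes for relatives and regulators of Yap1 did not pass the test. Of 20 genes, 3 (15%) were lower and 0 were higher, against 3.01% and 1.88% of all rows tested. The 3 were *YAP1* itself, which the strains alter by design, *YAP6* (-0.86) and *RPN4* (-0.80). *RPN4*, the activator of proteasome genes, had 27.8, 24.5 and 25.9 CPM in the *yap1* deletion, against 45.9, 47.2 and 42.6 CPM in overexpression. Of 33 proteasome genes, edgeR called 0, with 0 at an unadjusted p under 0.05, and DESeq2 called 0. Over all 6714 rows tested, 949 had an unadjusted edgeR p under 0.05. The median log2 fold change of the proteasome genes was -0.03. *CAD1*, the closest relative of *YAP1*, had a log2 fold change of 0.01 (95% interval -0.29 to 0.31). *YAP6* was called only with all libraries or without deletion or overexpression replicate 3, and its adjusted p was up to 0.166 otherwise.

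**Figure D3:**
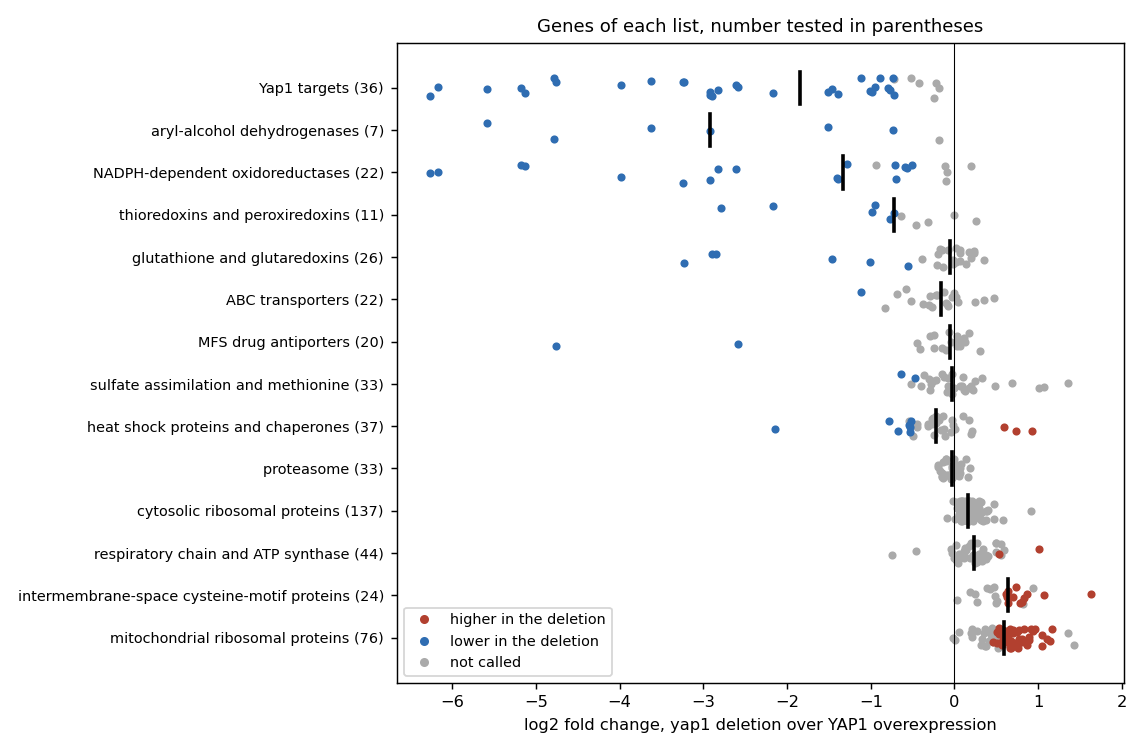
Log2 fold change of the yap1 deletion over YAP1 overexpression (x axis) for the genes of 14 lists (y axis, number tested in parentheses). Points are genes, red if higher and blue if lower in the deletion, and black bars are list medians, which run from -2.93 for aryl-alcohol dehydrogenases to 0.63 for intermembrane-space proteins.

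The genes that were higher in the *yap1* deletion were mainly mitochondrial. Of the 120 with an annotation, 99 (82.5%) have the word mitochondrial or mitochondrion in their R64 description, against 18 of 188 (9.57%) of the lower genes and 884 of 5926 (14.9%) of all genes tested. Mitochondrial ribosomal protein genes, which are nuclear genes for the ribosome inside mitochondria, were the largest group. Of 76 genes, 45 (59.2%) were higher and 0 were lower, against 1.88% of all rows tested. The called members rose by 0.46 to 1.16 on the log2 scale, and the median of the list was 0.59. In 65 of 76 genes all 3 deletion libraries lay above all 3 overexpression libraries, as was the case in 8.28% of all rows. The summed level of the list was 3267, 2942 and 2894 CPM in the deletion, against 1985, 1997 and 1983 CPM in overexpression.

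*MNP1*, a protein of the large mitochondrial subunit, had 97.2, 105 and 104 CPM in the *yap1* deletion, against 51.1, 42.9 and 44.4 CPM in *YAP1* overexpression (log2 fold change 1.14, SE 0.122, edgeR adjusted p = 4.47e-06). *RSM19*, of the small subunit, had 75.0, 63.5 and 63.6 CPM in the deletion and 31.5, 32.1 and 26.7 CPM in overexpression, and rose by 1.16. *MRPL27* rose by 1.11 and *MRPS9* by 0.89, with 41.2, 36.5 and 35.9 CPM in the deletion and 17.5, 21.8 and 22.0 CPM in overexpression. None of these 4 genes had overlapping groups. The row *YGL069C* rose by 1.23. It has no entry in the R64 annotation used, so whether it shares reads with another gene, such as those named here, could not be checked. The number of genes of the list called was 28 without overexpression replicate 1 or without overexpression replicate 2, and 11 in the fit that included WT. With scaling by library size only it was 9, where the median was still 0.53 and 3 of the 76 genes had a negative log2 fold change. Of 137 cytosolic ribosomal protein genes, edgeR and DESeq2 both called 0. An unadjusted edgeR p under 0.05 was found for 7, against 949 of all 6714 rows tested. The median of these genes was 0.16, or 0.08 with scaling by library size only. Their log2 fold change was positive in 135 of the 137, or in 117 with scaling by library size only.

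A second group of higher genes is on a list of proteins with cysteine motifs in the intermembrane space of mitochondria. Many are small proteins with paired cysteines that the Mia40 disulfide relay folds, but the list also holds others, such as *MIA40* of the relay. Of 24 genes 12 (50%) were higher, against 1.88% of all rows tested, and 0 were lower. All 24 had a positive log2 fold change, of which 1 was negative with scaling by library size only. *COX17*, which hands copper to cytochrome c oxidase, led the group. It had 224, 232 and 262 CPM in the *yap1* deletion, against 71.8, 82.7 and 76.5 CPM in *YAP1* overexpression, a log2 fold change of 1.64 (SE 0.127, edgeR adjusted p = 3.79e-08). *MIA40* itself rose by 0.64, with 116, 93.4 and 99.6 CPM in the deletion and 63.7, 66.3 and 67.6 CPM in overexpression.

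The small Tim chaperones *TIM8* and *TIM10* rose by 0.81 and 0.74, the lipid transfer factor *MDM35* by 0.83 and the assembly factor *CMC2* by 0.79. *CMC1* rose by 1.07 and lost its call without deletion replicate 1 or 2 or overexpression replicate 1 or 2 (adjusted p 0.0514 to 0.0618). Fewer genes of the list passed when single libraries were left out, 7 without overexpression replicate 1 or 3, and 2 passed with scaling by library size only and 5 in the fit that included WT. Outside the list, *PET117*, which couples heme a synthesis to assembly of cytochrome c oxidase, rose by 1.47, with 72.9, 50.0 and 61.7 CPM in the deletion and 20.6, 28.5 and 17.6 CPM in overexpression. *COA3*, another assembly factor of the oxidase, rose by 1.23, and it lost its call without overexpression replicate 2 (adjusted p = 0.0508). *MAM33*, a matrix protein, rose by 1.22 with an edgeR adjusted p of 0.0396, and its call was lost without deletion replicate 1 or 2 or overexpression replicate 1 or 2 (adjusted p 0.0831 to 0.243).

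Of 44 genes for subunits of the respiratory chain and the ATP synthase, *RIP1* (1.01) and *ATP19* (0.53) were higher and 0 were lower, with a median of 0.23. The share higher was 4.5%, against 1.88% of all rows tested. *RIP1* was a low gene, at 5.40 to 7.19 CPM in the *yap1* deletion and 2.34 to 3.71 CPM in overexpression. Both lost their calls without deletion replicate 1 or 2 or overexpression replicate 2 or 3, and *RIP1* also without overexpression replicate 1 (adjusted p 0.0541 to 0.189). Of 5 genes of mitochondrial DNA that could be tested, 1 (20%) was higher, against 1.88% of all rows tested. This was *COX1*, a core subunit of the oxidase, higher by 0.63, and it lost its call without overexpression replicate 1 (adjusted p = 0.0694). The median of these genes was 0.63 but -0.44 with DESeq2 or without the filter on low counts, where 9 genes entered in place of 5. Several genes for mitochondrial chaperones and translation factors were also higher. *HSP10* had 470, 551 and 525 CPM in the deletion, against 269, 297 and 245 CPM in overexpression, and rose by 0.93 (SE 0.13, edgeR adjusted p = 0.000129). Its partner *HSP60* rose by 0.60 and the import motor *SSC1* by 0.73. *HSP60* lost its call without overexpression replicate 1 (adjusted p = 0.0647), and *SSC1* without overexpression replicate 1 (0.0702) or 3 (0.0781). *MEF1*, an elongation factor of mitochondria, rose by 1.12. Chosen after the values were seen, the elongation factor *TUF1* rose by 0.95, with 176, 191 and 165 CPM in the deletion and 89.7, 91.2 and 94.6 CPM in overexpression, and the import receptor *TOM20* rose by 0.78.

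**Figure D4:**
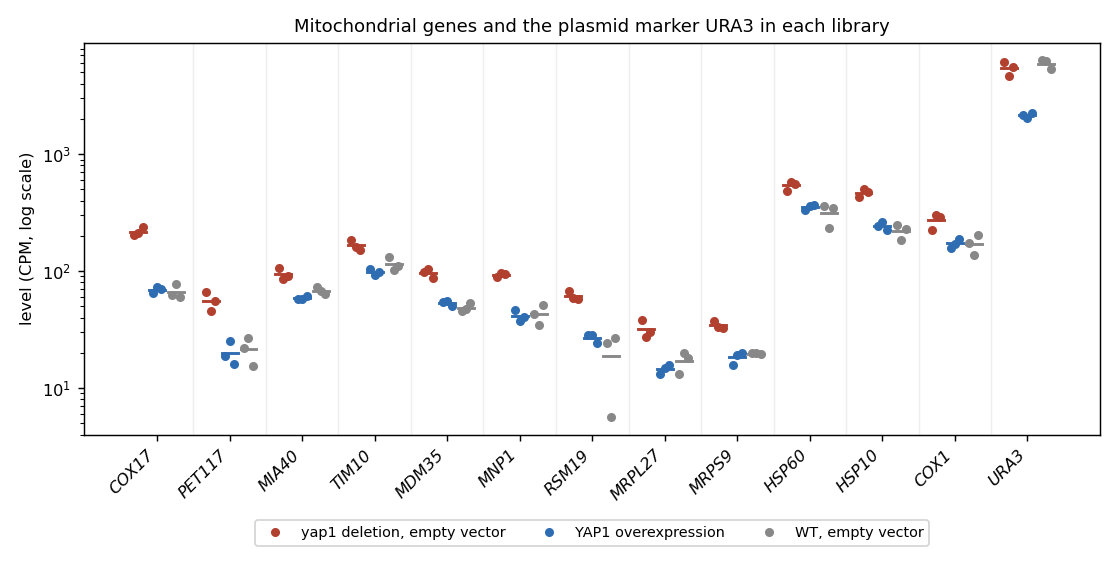
Level in CPM on a log scale (y axis), on the scale of all 9 plasmid libraries, of 12 mitochondrial genes and the plasmid marker URA3 (x axis) in the yap1 deletion (red), YAP1 overexpression (blue) and WT with empty vector (grey, in no test). Points are single libraries and bars are group means; COX17 lay at 204 to 237 CPM in the deletion, 65.0 to 72.5 CPM in overexpression and 59.6 to 77.4 CPM in WT.

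Many nuclear mRNAs for mitochondrial proteins carry in their 3′ untranslated region a binding site of Puf3, an RNA-binding protein that promotes the decay of these mRNAs. The element TGTANATA was therefore searched on the coding strand of the 200 bases after the stop codon, a search chosen after the higher genes were seen. Sites of the leading genes are printed from R64, 5′ to 3′ on the coding strand, with the element in capitals.
COX17, chrXII:131121-131128: atatactaccTGTAAATAtgtgcgatgc
COX17, chrXII:131166-131173: aaccatttctTGTATATAtaagaatagg
PET117, chrV:272139-272146: tactcttgttTGTATATAtgtaagaatc
MNP1, chrVII:375750-375757: gaatatatcaTGTAAATAtgtttaactc
RSM19, chrXIV:695007-695014: tgatatatcaTGTAAATAagatcaagcc
MRPL27, chrII:768709-768716: tcaatatgcgTGTAAATActagttttcg
MRPS9, chrII:536235-536242: tcgttattccTGTAAATAaagttatatg
MDM35, chrXI:339137-339144: ttattcaacaTGTAAATActaatactgc
HSP10, chrXV:370462-370469: tgtatgtaccTGTAAATAggccattatg
*COX17* held 2 copies, 32 and 77 bases after its stop codon, and *RSM19* held 3. The search fixed every base of the element except its one open position, which is A or T in the sites shown.

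The Puf3 element was present in 97 of the 119 genes that were higher in the *yap1* deletion (81.5%), in 10 of the 126 lower genes (7.94%) and in 835 of the 5746 genes tested (14.5%). All 45 mitochondrial ribosomal protein genes called higher and 28 of the 31 not called held it, so the element was common to nearly the whole list and did not separate its called members. With that list set aside, 52 of the 74 other higher genes (70.3%) held it. Among genes described as mitochondrial, 89 of 328 with the element (27.1%) and 9 of 545 without it (1.65%) were higher. The median log2 fold changes were 0.37 and 0.03. The mitochondrial ribosomal protein list, of which 73 of 76 genes held the element and 45 were higher, was not set aside in this contrast. For other genes the shares higher were 1.58% of 507 with the element and 0.298% of 4366 without it. *PUF3* itself had 5.34, 4.84 and 7.76 CPM in the deletion and 12.1, 11.8 and 6.41 CPM in overexpression, and the groups overlapped. Its log2 fold change of -0.76 did not pass the test (edgeR adjusted p = 0.146), and it passed without overexpression replicate 3 (adjusted p = 0.0428).

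**Figure D5:**
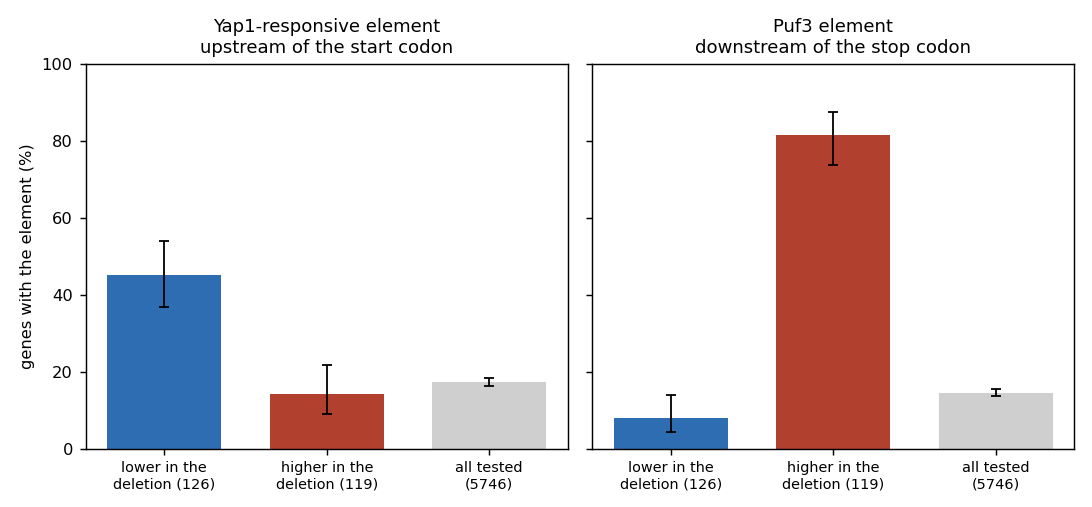
Share of genes in percent (y axis) that hold a Yap1-responsive element in the 500 bases upstream of the start codon (left) or the Puf3 element in the 200 bases downstream of the stop codon (right), for genes lower in the yap1 deletion (blue), genes higher (red) and all genes tested (grey). Error bars are 95% Wilson intervals; the first element is found in 45.2% of the lower genes and the second in 81.5% of the higher genes.

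The levels of WT with empty vector are given here as a description, since WT entered no test and its replicate 2 had the largest standard deviation around the group mean (0.675). Of the 30 Yap1 targets called lower, WT was nearer to the *yap1* deletion in 27 and nearer to *YAP1* overexpression in 3, and the counts were 26 and 4 without WT replicate 2. Among the genes called higher, WT was nearer to the deletion in 12 and nearer to overexpression in 114 of the 126, or 25 and 101 without WT replicate 2. For the mitochondrial ribosomal protein genes called higher the split was 3 and 42, and for the intermembrane-space genes 0 and 12. Over all rows tested, WT was nearer to the deletion in 50.8%. *TRX2* had 231 to 316 CPM in the deletion, 1128 to 1224 CPM in overexpression and 317 to 406 CPM in WT on the scale of all 9 libraries. *MNP1* had 88.4 to 96.0 CPM in the deletion, 37.6 to 46.2 CPM in overexpression and 34.4 to 51.5 CPM in WT. The WT libraries of *SOD1* were split, with 856 to 885 CPM in the deletion, 1557 to 1650 CPM in overexpression and 1063, 1662 and 1072 CPM in WT, where replicate 2 lay with overexpression.

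Of 37 heat shock proteins and chaperones, 7 were lower in the *yap1* deletion and 3, the mitochondrial chaperones above, were higher, against 3.01% and 1.88% of all rows tested. *HSP31*, a methylglyoxalase and chaperone of the DJ-1 family, had 79.2, 103 and 95.3 CPM in the deletion, against 416, 407 and 400 CPM in overexpression, and fell by 2.14 (SE 0.134, edgeR adjusted p = 1.42e-09). The other 6, such as *SSA3* and *BTN2*, had log2 fold changes of -0.78 to -0.52. *BTN2* lost its call without deletion replicate 1 or 2 or overexpression replicate 1 or 2 (adjusted p 0.0647 to 0.241), and *SSA3* without overexpression replicate 2 (0.0561). *STI1* lost it with 5 of the 6 libraries left out in turn, *CPR6* with 4 and *ERO1* with 3. Of 30 general stress genes, 2 (6.67%) were lower, namely *GND2* and *SOL4*. Of 33 genes of sulfate assimilation and methionine, *MUP3* (-0.64) and *CYS3* (-0.47), or 6.06%, were lower, against 3.01% of all rows tested for both lists. *MUP3* and *CYS3* each lost the call when any of several single libraries was left out (4 and 5 of the 6, adjusted p up to 0.206).

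Of 31 genes of iron uptake and its partners, *FIT2*, *FRE2* and *ATX1* were higher and *ISU2*, a scaffold for iron-sulfur clusters, was lower in the *yap1* deletion. These are 9.68% higher and 3.23% lower, against 1.88% and 3.01% of all rows tested. *FIT2*, a cell wall mannoprotein that retains siderophores, had 207, 263 and 277 CPM in the deletion, against 169, 120 and 91.3 CPM in overexpression, and rose by 0.98. It lost its call without deletion replicate 2 (adjusted p = 0.104) or overexpression replicate 2 (0.125). *FRE2* lost its call without deletion replicate 2 or 3 or any overexpression replicate (adjusted p up to 0.153), and *ATX1* without overexpression replicate 3 (0.0669). *ISU2* had 11.2, 10.5 and 6.92 CPM in the deletion, against 18.3, 17.5 and 20.1 CPM in overexpression, and fell by 0.96. Of 13 genes of metal and arsenic detoxification, *YCF1* and *ARR2* (15.4%) were lower, against 3.01% of all rows tested. Of 37 cell wall genes *CIS3* was higher and *TIP1* lower. These are 2.70% each way, near the 1.88% and 3.01% of all rows tested. *ARR2* lost its call whichever of the 6 libraries was left out (adjusted p 0.0647 to 0.265), *CIS3* without deletion replicate 2 or 3 or any overexpression replicate (0.0657 to 0.163), and *TIP1* without deletion replicate 1 or 3 or overexpression replicate 2 or 3 (0.0570 to 0.123). *INO1*, the enzyme of inositol synthesis, had 251, 279 and 195 CPM in the deletion and 88.1, 96.1 and 145 CPM in overexpression (log2 fold change 1.14, edgeR adjusted p = 0.00309). *INO1* lost its call without deletion replicate 1 (adjusted p = 0.0543). Of 29 glycolysis and fermentation genes 1 (3.45%) was called higher, *ADH5* (0.67), against 1.88% of all rows tested. Of 17 hexose transporter genes edgeR called 0 and DESeq2 called 1. An unadjusted edgeR p under 0.05 was found for 3 of the 17, against 949 of all 6714 rows tested. *ADH5* lost its call without deletion replicate 1 or 2 or overexpression replicate 1 or 2 (adjusted p 0.0519 to 0.114).

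Rows of Ty retrotransposons made up 59 of the 202 lower rows. Ty elements are mobile DNA copied through RNA. Rows of the same Ty family are near-identical copies that share reads, so they are not separate observations. The list was made after the values were seen. Of 88 rows, 59 (67.05%) were lower, against 3.01% of all rows tested. Of these 59, 53 were Ty1, of 61 Ty1 rows tested, and 6 were Ty2, of 20 Ty2 rows tested. The 59 rows fell by 0.46 to 0.80 on the log2 scale. The summed level of the list was 9143, 9228 and 10550 CPM in the *yap1* deletion, against 13980, 17380 and 14260 CPM in *YAP1* overexpression. The count was 37 without deletion replicate 2, 28 without overexpression replicate 2, 2 in the fit that included WT and 1 with scaling by library size only, although the median of -0.61 became -0.66 there. With the Ty rows set aside, 143 rows were lower in the deletion.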

How the data were processed

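The authors prepared QuantSeq 3′ libraries from total RNA, aligned the reads with Bowtie2 and counted unique and multiple alignments per gene with bedtools. The labels name the sacCer3 build. Versions, the gene annotation and the strand setting are not given in the sources used here. The deposited values are raw read counts, 1 list of 7126 rows per library, without normalization.

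The 6 lists compared share identical row names. In the WT libraries 169 rows were renamed and joined by position. Counts were filtered with filterByExpr, scaled by TMM and fitted with the robust quasi-likelihood test of edgeR 4.0.16 in R 4.3.3, with 4 residual degrees of freedom and no covariates. The biological coefficient of variation was 16.5%. The procedure was tested on simulated data. WT levels were scaled over 9 libraries, and the nearer group was taken on log2(CPM + 1).

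Of the rows, 6128 matched RefSeq R64 genes, which gave coordinates, descriptions and sequence. Shares of genes with an element have 95% Wilson intervals. No set test was made. Rows that overlap another annotated gene (59 of the lower rows, Ty included, and 5 of the higher) are uncertain without strand. Overlap could not be checked for the 14 lower and 6 higher rows that have no R64 entry.

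Named were *YAP1*, *FLR1*, *ATR1*, *YCF1*, *PDR5* and *SNQ2*, the 12 largest changes in each direction among called genes with at least 10 CPM and no overlap, and up to 8 called genes per list, with uncalled members named as such. The comparison, lists and rule were chosen with earlier results of these data known. Alternatives were DESeq2 1.42.0, RLE, upper-quartile and library-size scaling, other filters, rRNA rows left out, a 9-library fit, a replicate block and each library left out. Leaving out Ty rows and the Puf3 search were added after the data were seen. A table of mouse genes and the libraries without plasmid were not used.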

Additional observations from a re-analysis of the deposited data

How the results depend on the processing

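Scaling by library size only gave 25 rows higher and 82 lower in the *yap1* deletion, with 9 mitochondrial ribosomal protein genes, 2 intermembrane-space genes and 1 Ty row among them. A fit of all 9 plasmid libraries, whose biological coefficient of variation was 25.8%, gave 21 higher and 45 lower, with 19 Yap1 targets, 9 oxidoreductases, 3 aryl-alcohol dehydrogenases, 2 Ty rows, 11 mitochondrial ribosomal protein genes and 5 intermembrane-space genes. A minimum mean of 10 CPM left 2 aryl-alcohol dehydrogenases called, since most of the family is below it. Without Ty rows 131 rows were lower. DESeq2 gave 153 higher and 231 lower. The other scalings and filters kept every count above within 1.5 times. When 1 library was left out, 70 to 164 rows were higher, 111 to 195 lower, and the lists had 28 to 30 Yap1 targets, 14 to 16 oxidoreductases, 6 thioredoxin genes, 5 to 6 glutathione genes, 4 to 6 aryl-alcohol dehydrogenases, 28 to 58 Ty rows, 28 to 43 mitochondrial ribosomal protein genes and 7 to 11 intermembrane-space genes called. The deviations of same-numbered libraries from their group means had correlations of -0.062, -0.065 and -0.168. Deviations from a mean of 3 libraries are not independent, so these values cannot show whether the numbers mark a pairing. With the replicate block 106 rows were higher and 181 lower. Counting TTACTAA alone, 37.3% of the lower genes held it.

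For 116 single genes, 1006 of 1148 log2 fold changes under other settings and 567 of 696 with a library left out kept direction and side of the threshold, 0 reversed, and 132 and 124 lost the call. Among those that passed under some settings only were *SNQ2* (2 of 16), *SOD2* (4 of 16), *ZWF1* (8 of 16) and *PUF3* (1 of 15). Genes of low level are limited by depth. *YAP1* in the deletion (2 to 22 counts) and *YCR102C* (3 to 6 counts) are examples.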

Other observations

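The genes given here are on none of the lists and were chosen after their values were seen, so they are single values and describe no pathway. *CAR1*, the arginase, had 94.6, 111 and 96.8 CPM in the deletion, against 158, 203 and 149 CPM in overexpression, and fell by 0.75 (edgeR adjusted p = 0.00205). The ammonium permease *MEP2* fell by 0.91 and the amino acid permease *DIP5* by 0.88. *GAP1*, the general amino acid permease, fell by 0.79, and it lost its call without deletion replicate 2 (adjusted p = 0.0515) or overexpression replicate 2 (0.0604). On the scale of all 9 libraries *CAR1* had 86.0 to 102 CPM in the deletion, 136 to 178 CPM in overexpression and 142 to 149 CPM in WT.

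*DRE2*, an electron donor in the assembly of cytosolic iron-sulfur clusters, had 29.3, 32.2 and 32.3 CPM in the deletion, against 65.2, 79.9 and 56.8 CPM in overexpression, and fell by 1.11 (edgeR adjusted p = 3.42e-05). *NAR1* and *NBP35*, which act in the same assembly, had log2 fold changes of -0.67 and -0.58, and both lost their calls without deletion replicate 2 or overexpression replicate 2 or 3 (adjusted p 0.0528 to 0.124). The purine genes *ADE17*, *ADE2* and *ADE1* had log2 fold changes of -0.99, -0.76 and -0.68, and each passed the test.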
